A study of Homo sapiens with 12 samples.

Results

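A set of 56 protein-coding genes was higher after NRF2 siRNA in all 3 lung cancer cell lines of the study, A549, H2023 and H460. The genes were chosen by their own expression values: in each line, the lower of the 2 NRF2 siRNA libraries had to reach 2 FPKM and 1.4 times the higher of the 2 control siRNA libraries. FPKM (fragments per kilobase of transcript and per library fragment total) is a level scaled to transcript length and library size. Of the 19403 protein-coding genes in the files, 9205 were at 2 FPKM or above in all 6 NRF2 siRNA libraries, and the 56 genes were 0.608% of these. The 9205 genes are called the expressed genes below. Since the contrast of NRF2 siRNA with control siRNA chose the genes, its values are given as a description and without a test.

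By their labels, the A549 and H2023 lines derive from adenocarcinoma of the lung and H460 from large cell carcinoma. Each carries a KEAP1 mutation, in the control groups as in the NRF2 siRNA groups. Cells received control siRNA or siRNA to NRF2, and RNA was taken 48 h later. Each of the 6 groups held 2 libraries. The control libraries, numbered 0 and 1, were biological duplicates, whereas the 2 NRF2 siRNA libraries were made with different reagents, siRNA 28 and siRNA 30, so the spread within an NRF2 siRNA group includes the difference between the reagents. A549 cells were grown in high-glucose medium and the other lines in low-glucose medium. The A549 libraries were made after removal of ribosomal RNA and the H2023 and H460 libraries from polyA RNA, so line, medium and protocol cannot be told apart between A549 and the others. The methods name control siRNAs from 2 suppliers without saying which was used for these libraries. In bulk RNA, a change in the share of cells and a change in RNA per cell cannot be told apart.

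NRF2, the product of NFE2L2, is a transcription factor that pairs with small MAF proteins on antioxidant response elements and activates genes of glutathione synthesis, NADPH supply and detoxification. KEAP1 is the adaptor that hands NRF2 to a ubiquitin ligase, and lung cancers with KEAP1 mutations keep NRF2 at a high level. The genes described here are the opposite of the classical targets: their transcripts were more abundant when NRF2 was lowered.

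The labels were checked on the targeted gene first. NFE2L2 was at 38.2 and 30.9 FPKM in the A549 control libraries and at 5.31 and 7.84 FPKM with siRNA 28 and siRNA 30. In H2023 it was at 120.0 and 118 FPKM with control siRNA and at 7.74 and 6.80 FPKM with NRF2 siRNA, and in H460 at 144 and 99.5 FPKM against 6.54 and 12.2 FPKM. The groups did not overlap in any line. Relative depth within a line, read from the step between low FPKM values, was 92.5% to 107% of the first control library, and 12732 to 13909 genes per library reached 1 FPKM. Absolute read depth is unknown from FPKM, and no library stood apart by these measures. The mitochondrial share of summed FPKM was 0.892% to 1.56% in A549, 12% to 18.1% in H2023 control and 17.3% to 22.8% in H2023 NRF2 siRNA libraries, and 8.56% to 13.1% in H460 control and 20.8% to 26% in H460 NRF2 siRNA libraries. This share was higher with NRF2 siRNA in H460 without overlap and in H2023 with overlap, and its part in the results was not tested. Leaving out mitochondrial transcripts raised the median fold of the members from 3.41 to 3.97 in H460 and from 2.42 to 2.56 in H2023. In H460 it raises every NRF2 siRNA value relative to the control values and so loosens the condition. The condition was then met by 79 genes, the 56 members among them. All 6 epithelial markers examined (EPCAM, CDH1, KRT7, KRT8, KRT18 and KRT19) were at 1 FPKM or above in every A549 and H2023 library, and 4 of them in every H460 library. Their summed level was 6990 to 10200 FPKM with control siRNA and 8730 to 10000 FPKM with NRF2 siRNA in A549, 2810 to 3390 against 6010 to 6340 FPKM in H2023 and 1150 to 1350 against 1760 to 2630 FPKM in H460, so it was higher with NRF2 siRNA without overlap in H2023 and H460. The lung lineage marker NKX2-1 was under 1 FPKM in every library of all 3 lines, as were the endothelial markers CDH5, VWF and KDR and the leukocyte markers PTPRC and CD3E. The leukocyte list also holds CD68, which was at 1 FPKM or above in every library of all 3 lines, and CD14, which was so in every H460 library. The summed level of the 4 leukocyte markers read here went from 14.7 to 16.1 FPKM in A549 control libraries to 29.3 to 32.6 FPKM in A549 NRF2 siRNA libraries, and its ranges were 43.9 to 48.9 against 46.8 to 58.5 FPKM in H2023 and 38.4 to 44.7 against 34.1 to 48.6 FPKM in H460. The sum of the 5 fibroblast markers was 1.64 to 2.32 FPKM against 2.15 to 3.42 FPKM in A549, 2.14 to 3.92 against 3.99 to 8.76 FPKM in H2023 and 5.74 to 6.84 against 12.1 to 16.1 FPKM in H460. In every H460 library COL1A1 and COL3A1 were at 1 FPKM or above and COL1A2 and DCN under it. The part of these markers in the results was not tested.

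The number of genes that met the condition differed between lines. In A549, 331 of 10369 genes did so (3.19%), in H2023 762 of 10659 (7.15%) and in H460 1533 of 10320 (14.9%). Of the expressed genes, 1497 met it in at least 1 line, 344 in at least 2 and 56 in all 3. The same condition turned around was met by 85 of 9071 genes (0.937%), which are called the fallers below. A549 set the limit for most members: the smallest ratio of the lower NRF2 siRNA to the higher control library lay in A549 for 41 of the 56 genes, in H2023 for 11 and in H460 for 4. The median fold of the group means was 1.88 for A549, 2.42 for H2023 and 3.41 for H460. The expressed genes had median folds of 1.01, 1.01 and 0.951 in the same lines. The members ranged from 1.504 to 6.08-fold in A549, from 1.64 to 6.42-fold in H2023 and from 1.67 to 25.7-fold in H460. The fold was largest in H460 for 40 members, in H2023 for 13 and in A549 for 3, EID3, MAGEH1 and NUCB2. Among expressed genes the absolute log2 fold was likewise largest in H460 for 64.8%. Fold changes of at least 2 in all 3 lines were found for 18 members. The control mean in H460 was under 1 FPKM for 10 members, whose H460 folds rest on low levels.

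**Figure D1:**
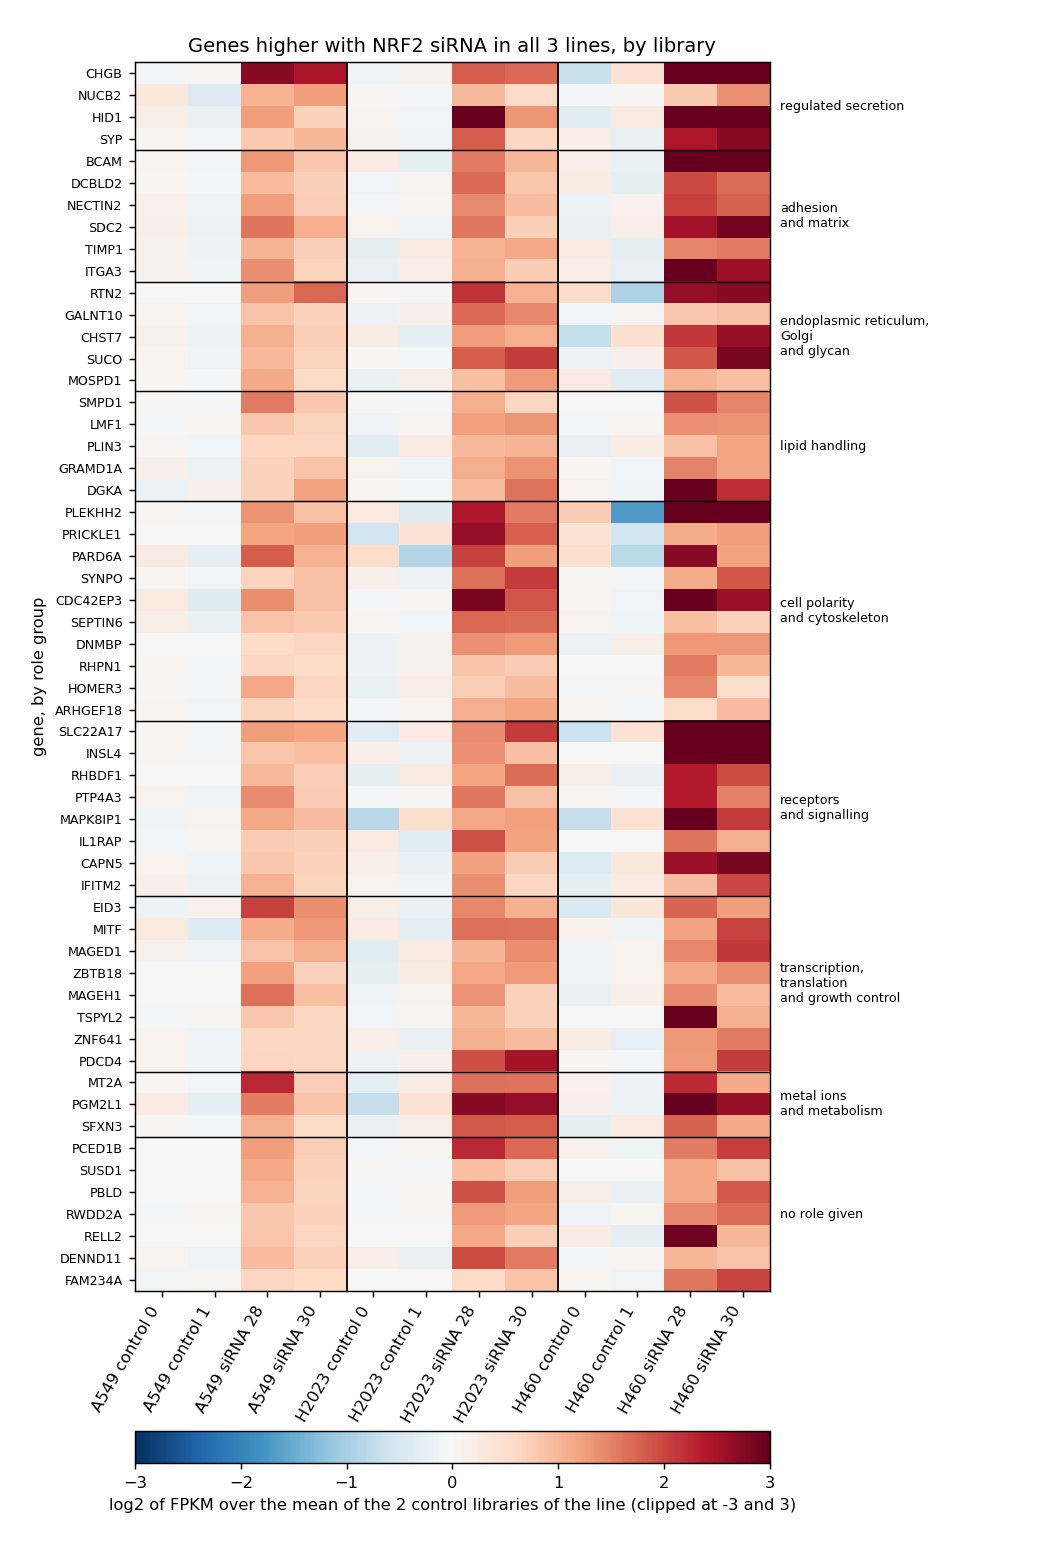
The 56 genes (rows, by role group) in the 12 libraries (columns), coloured by log2 of FPKM over the mean of the 2 control libraries of the same line, clipped at 3 in either direction. The control columns are pale for most genes, but low-level genes such as PLEKHH2 in H460 (0.375 and 0.0687 FPKM) are coloured there too. All NRF2 siRNA columns are red by the choice of genes, most deeply in H460.

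The threshold cuts through a continuous range of values. The 3 members closest to it were PDCD4 with a smallest ratio of 1.41 in A549, HOMER3 with 1.41 in H460 and ARHGEF18 with 1.4025 in A549. The first genes left out were GABBR1 (1.398), C4orf48 (1.397) and P3H4 (1.397). CPE, which processes peptide hormones in secretory granules, came next with 1.396 and was singled out after its value was seen. Of the members, 34 had a smallest ratio of at least 1.5, and 2, CHGB and SLC22A17, of at least 2. Role groups were assigned after the members were known, so group sizes are a description. In what follows, the values of a gene are given for control libraries 0 and 1 against siRNA 28 and siRNA 30, in that order.

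Genes of regulated secretion held the highest-ranked member. CHGB encodes chromogranin B, a granin of dense-core secretory granules, and lies on chromosome 20 from 5892156 to 5905999 (GRCh37, plus strand). CHGB was at 10.2 and 10.7 against 69.6 and 57.2 FPKM in A549, 3.37 and 4.06 against 13.1 and 12.1 FPKM in H2023, and 0.112 and 0.245 against 5.43 and 3.77 FPKM in H460. The 2 NRF2 siRNA libraries were above both controls by at least 2.98 times in every line. The level was higher in H2023 than in H460 in both groups, and A549 is not compared in level because its protocol differed. SYP encodes synaptophysin, a membrane protein of small secretory vesicles. SYP was at 3.53 and 3.25 against 5.88 and 6.8 FPKM in A549, 1.45 and 1.21 against 4.7 and 2.05 FPKM in H2023, and 1.23 and 0.914 against 5.77 and 7.08 FPKM in H460. HID1 was at 7.4 and 5.71 against 15.5 and 10.5 FPKM in A549, 3.29 and 2.96 against 25.1 and 7.76 FPKM in H2023, and 0.942 and 1.45 against 24.6 and 11.3 FPKM in H460. HID1 acts at the trans-Golgi network in the making of dense-core granules, and its level with siRNA 28 was above that with siRNA 30 in all 3 lines. NUCB2 was at 36.6 and 22.5 against 61.3 and 70.2 FPKM in A549, 52.8 and 50.4 against 102 and 76.5 FPKM in H2023, and 38.4 and 41.5 against 68.7 and 104 FPKM in H460. NUCB2 is a calcium-binding protein of the Golgi and the precursor of nesfatin-1. The 4 genes had a median fold of 2.10 for A549, 2.97 for H2023 and 10.5 for H460. SYP was also on the list of neuroendocrine markers, of which NEUROD1 and INSM1 were under 1 FPKM in every library of all 3 lines. CHGA, the granin chromogranin A, was under 1 FPKM in every A549 library. It was at 4.46 and 3.37 FPKM with control siRNA against 1.36 and 0.884 FPKM with NRF2 siRNA in H2023, and at 14.5 and 21.1 against 7.77 and 2.88 FPKM in H460, so CHGA was lower with NRF2 siRNA in both of these lines, without overlap, where CHGB and SYP were higher. The summed level of the 4 markers read here was 3.62 to 3.84 FPKM in A549 control and 6.28 to 7.27 FPKM in A549 NRF2 siRNA libraries. Its ranges were 4.59 to 5.91 against 2.94 to 6.07 FPKM in H2023 and 15.7 to 22 against 9.95 to 13.6 FPKM in H460, and the part of these cell type markers in the result was not tested.

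Cell adhesion and the extracellular matrix were represented by 6 genes. BCAM was at 9.11 and 8.12 against 21.3 and 15.2 FPKM in A549, 23.6 and 16.3 against 58.2 and 39.9 FPKM in H2023, and 0.956 and 0.742 against 10.9 and 7.37 FPKM in H460. BCAM is a laminin-binding receptor of the immunoglobulin family (chromosome 19, 45312328 to 45324678, plus strand), and in H460 it went from under 1 FPKM to above 7 FPKM. DCBLD2 was at 267 and 244 against 491 and 420.4 FPKM in A549, 32.5 and 36.8 against 112 and 62 FPKM in H2023, and 23.6 and 16.7 against 80.3 and 64.6 FPKM in H460. DCBLD2 is a transmembrane protein related to the neuropilins, and it was the most abundant of the 6 in A549. NECTIN2 was at 34 and 28.6 against 75.2 and 52.2 FPKM in A549, 34.9 and 37.4 against 96.9 and 68.6 FPKM in H2023, and 9.52 and 11.5 against 43.4 and 36 FPKM in H460. SDC2 was at 5.48 and 4.41 against 15 and 10.6 FPKM in A549, 10.4 and 8.99 against 29.1 and 15.8 FPKM in H2023, and 3.02 and 3.99 against 20.2 and 25.5 FPKM in H460. NECTIN2 is an adhesion molecule of adherens junctions, and SDC2 is the heparan sulfate proteoglycan syndecan-2. ITGA3 and TIMP1 are added because they are among the members that differed most between H2023 and H460 control cells. ITGA3 was at 71.4 and 59.5 against 172 and 104 FPKM in A549, 154 and 206 against 377 and 304 FPKM in H2023, and 4.25 and 3.12 against 94.9 and 21.8 FPKM in H460. ITGA3 is the alpha subunit of a laminin-binding integrin. Its 2 NRF2 siRNA libraries in H460 lay far apart, although both were above the controls by the choice of genes. TIMP1 was at 59.8 and 49.2 against 111 and 89.1 FPKM in A549, 57.6 and 83.2 against 145 and 154 FPKM in H2023, and 341 and 237 against 799 and 842 FPKM in H460. TIMP1, an inhibitor of matrix metalloproteinases, was the most abundant of all 56 genes in H460. Both laminin receptors, BCAM and ITGA3, were low in H460 control cells. Of the 6 genes, all had an A549 fold between 1.79 and 2.58.

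**Figure D2:**
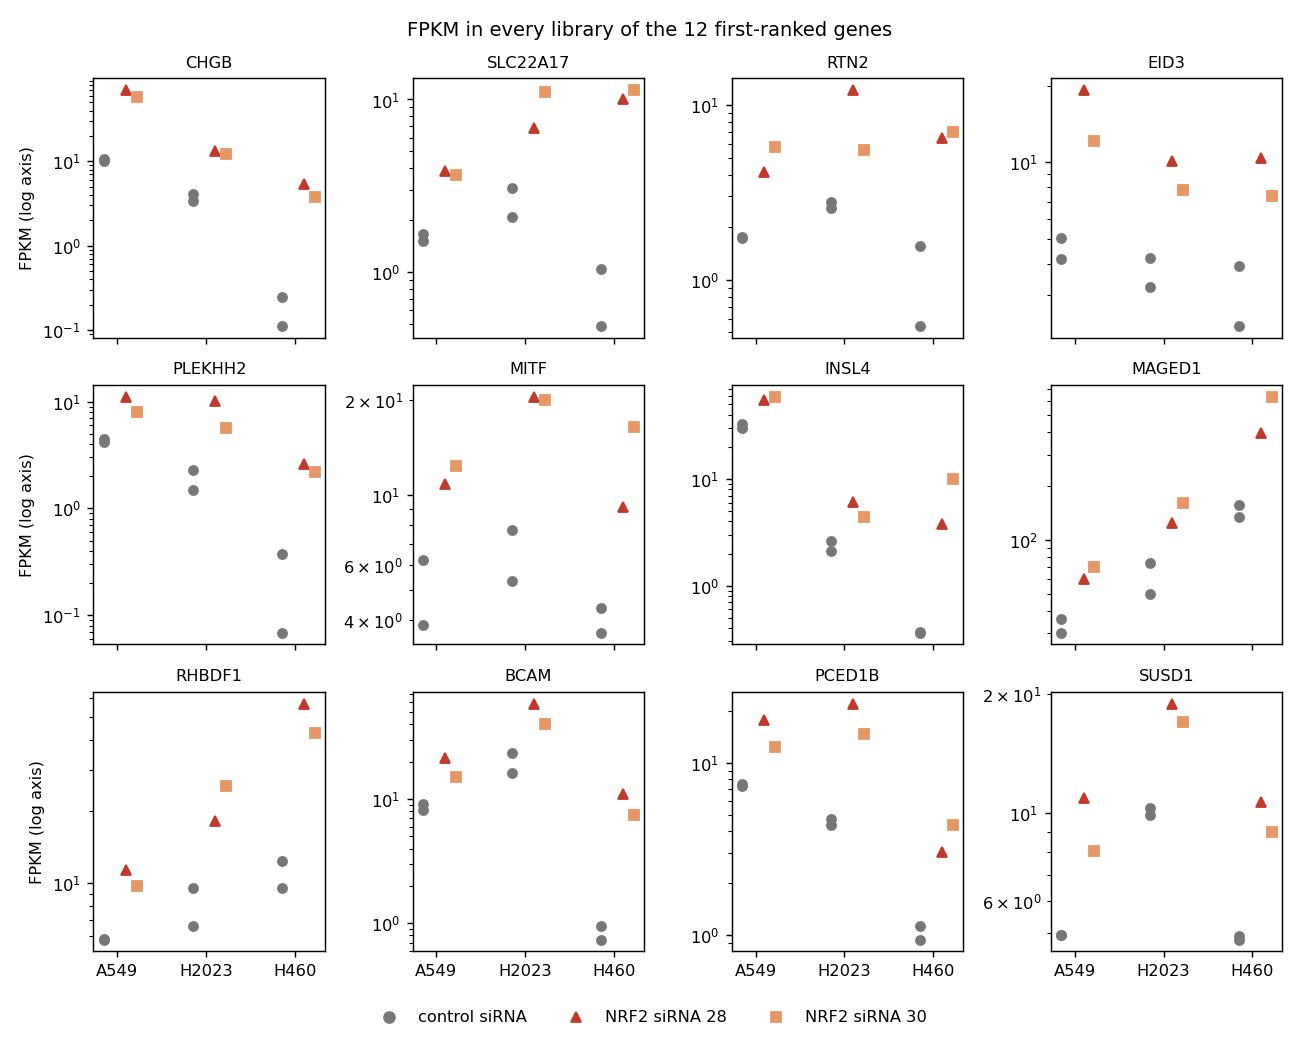
FPKM on log axes for the 12 members with the largest smallest ratio, per line, with control siRNA libraries as grey circles, siRNA 28 as red triangles and siRNA 30 as orange squares. In every panel and line both NRF2 siRNA points lie above both control points, which the choice of genes required.

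In the endoplasmic reticulum, Golgi and glycan group, RTN2 had rank 3 among all members. It is a reticulon, a family that shapes tubules of the endoplasmic reticulum (chromosome 19, 45988552 to 46000313, minus strand). RTN2 was at 1.75 and 1.74 against 4.15 and 5.73 FPKM in A549, 2.79 and 2.59 against 12.2 and 5.52 FPKM in H2023, and 1.56 and 0.545 against 6.52 and 7.0 FPKM in H460. GALNT10 was at 45.3 and 40.7 against 78.2 and 70.04 FPKM in A549, 101 and 127 against 371 and 307 FPKM in H2023, and 36.7 and 40.6 against 67.4 and 70.5 FPKM in H460. GALNT10 starts mucin-type O-glycans in the Golgi and was among the most abundant members in H2023. CHST7 was at 4.6 and 3.79 against 8.85 and 6.91 FPKM in A549, 1.83 and 1.3 against 3.75 and 3.31 FPKM in H2023, and 2.43 and 5.57 against 17.4 and 24.5 FPKM in H460. SUCO was at 11.6 and 10.2 against 21.3 and 17.2 FPKM in A549, 4.93 and 4.63 against 17 and 20.6 FPKM in H2023, and 6.6 and 8.21 against 27 and 52.6 FPKM in H460. CHST7 is a Golgi sulfotransferase and SUCO a membrane protein of the SUN domain family, and both had folds above 5 in H460. MOSPD1, an MSP domain membrane protein, had folds of 1.85, 2.16 and 1.94 in A549, H2023 and H460.

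Lipid handling was represented by 5 genes. SMPD1 is the lysosomal enzyme acid sphingomyelinase, LMF1 a reticulum protein needed for maturation of lipases, PLIN3 a coat protein of lipid droplets, GRAMD1A a carrier of cholesterol at membrane contacts and DGKA a kinase of diacylglycerol. SMPD1 was at 2.49 and 2.39 against 7.15 and 4.28 FPKM in A549, 13.3 and 12.7 against 27.4 and 20.5 FPKM in H2023, and 12 and 12.4 against 46.2 and 33.7 FPKM in H460. LMF1 was at 5.04 and 5.44 against 9.2 and 8.29 FPKM in A549, 2.85 and 3.26 against 7.17 and 7.61 FPKM in H2023, and 4.41 and 4.81 against 11.8 and 11.7 FPKM in H460. The 2 LMF1 libraries of each NRF2 siRNA group were close together. PLIN3 was at 30.3 and 26.8 against 44.9 and 44.5 FPKM in A549, 29.5 and 45.4 against 73.9 and 75.4 FPKM in H2023, and 40.8 and 56.4 against 89.1 and 111 FPKM in H460. GRAMD1A was at 31.1 and 24.6 against 45.2 and 50.8 FPKM in A549, 82.2 and 71.8 against 163 and 197 FPKM in H2023, and 19.3 and 17.5 against 51.6 and 42.1 FPKM in H460. PLIN3 and GRAMD1A were expressed at moderate levels in control cells and had folds of 1.56 to 2.54. DGKA had a fold of 7.21 in H460 against 1.96 in A549 and 2.51 in H2023.

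The largest role group, with 10 genes, concerned cell polarity and the cytoskeleton. PLEKHH2 is a protein with pleckstrin homology and FERM domains (chromosome 2, 43864399 to 43995126, plus strand). PLEKHH2 was at 4.51 and 4.22 against 11 and 8.03 FPKM in A549, 2.3 and 1.48 against 10.1 and 5.62 FPKM in H2023, and 0.375 and 0.0687 against 2.63 and 2.21 FPKM in H460. PRICKLE1 was at 1.23 and 1.23 against 2.79 and 2.91 FPKM in A549, 0.82 and 1.61 against 7.5 and 4.2 FPKM in H2023, and 6.61 and 3.32 against 10.7 and 11.8 FPKM in H460. PRICKLE1 belongs to the planar cell polarity pathway, and its fold was larger in H2023 (4.83) than in A549 (2.32) or H460 (2.27). PARD6A was at 2.49 and 1.7 against 7.34 and 4.32 FPKM in A549, 2.28 and 0.854 against 6.49 and 3.71 FPKM in H2023, and 2.69 and 1.08 against 12.5 and 4.33 FPKM in H460. SYNPO was at 5.21 and 4.73 against 7.92 and 9.17 FPKM in A549, 12.9 and 10.3 against 36.7 and 49.5 FPKM in H2023, and 31.9 and 30.4 against 67.7 and 114 FPKM in H460. PARD6A is part of the apical PAR polarity complex and SYNPO is the actin-binding protein synaptopodin. CDC42EP3, an effector of CDC42, had folds of 2.23, 5.41 and 7.52 in A549, H2023 and H460. The other 5 were SEPTIN6, a septin, DNMBP and ARHGEF18, exchange factors for small GTPases, RHPN1, and HOMER3, a scaffold protein. Their folds lay between 1.504 and 1.9 in A549.

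Receptors and signalling proteins numbered 8. SLC22A17 is a cell surface receptor for lipocalin-2 (chromosome 14, 23815523 to 23822121, minus strand). SLC22A17 was at 1.67 and 1.52 against 3.84 and 3.64 FPKM in A549, 2.08 and 3.07 against 6.84 and 11 FPKM in H2023, and 0.489 and 1.04 against 10.04 and 11.3 FPKM in H460. INSL4 was at 32.5 and 29.9 against 55.2 and 58.7 FPKM in A549, 2.61 and 2.1 against 6.08 and 4.42 FPKM in H2023, and 0.372 and 0.363 against 3.77 and 9.95 FPKM in H460. INSL4 is a peptide of the insulin and relaxin family known from placenta (chromosome 9, 5231419 to 5235304, plus strand). Its ratio between groups was largest in H460, over control levels under 1 FPKM. RHBDF1 was at 5.83 and 5.8 against 11.3 and 9.72 FPKM in A549, 6.59 and 9.54 against 18.3 and 25.7 FPKM in H2023, and 12.4 and 9.56 against 56.6 and 42.7 FPKM in H460. PTP4A3 was at 2.87 and 2.46 against 7.13 and 4.54 FPKM in A549, 3.97 and 4.22 against 12.3 and 7.52 FPKM in H2023, and 0.90 and 0.857 against 4.54 and 2.5 FPKM in H460. RHBDF1 is an inactive rhomboid protease that acts in trafficking of growth factor sheddases (chromosome 16, 108058 to 126354, minus strand), and PTP4A3 is a membrane-bound phosphatase. MAPK8IP1, a scaffold of the JNK pathway, and CAPN5, a calpain protease, had folds of 6.49 and 6.57 in H460 and 2.07 and 1.69 in A549. IL1RAP, the shared subunit of interleukin-1 receptors, had folds of 1.68 for A549, 3.04 for H2023 and 2.58 for H460. IFITM2, an interferon-induced membrane protein, had folds of 1.83, 2.10 and 2.93, but it has near-identical paralogs between which reads may have been shared.

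Among 8 genes of transcription, translation and growth control, EID3 had the highest rank. EID3 encodes an inhibitor of EP300-dependent differentiation (chromosome 12, 104697517 to 104698983, plus strand). EID3 was at 4.17 and 5.04 against 19.2 and 12.1 FPKM in A549, 4.2 and 3.25 against 10.1 and 7.78 FPKM in H2023, and 2.28 and 3.9 against 10.4 and 7.4 FPKM in H460. It lies within TXNRD1 (104609557 to 104744085, same strand), a classical NRF2 target whose fold was 0.147 for A549, 0.120 for H2023 and 0.110 for H460, so the 2 overlapping genes moved in opposite directions. MITF was at 6.19 and 3.86 against 10.8 and 12.3 FPKM in A549, 7.71 and 5.32 against 20.5 and 20.03 FPKM in H2023, and 4.36 and 3.65 against 9.18 and 16.4 FPKM in H460. MITF is the helix-loop-helix factor of melanocyte development and belongs to the family of TFEB (chromosome 3, 69788607 to 70017487, plus strand). MAGED1 was at 36 and 30.2 against 60.3 and 70.6 FPKM in A549, 49.6 and 73.8 against 124 and 161 FPKM in H2023, and 133 and 157 against 397 and 629 FPKM in H460. ZBTB18 was at 5.06 and 5.03 against 11.8 and 8.08 FPKM in A549, 1.28 and 1.83 against 3.5 and 3.78 FPKM in H2023, and 2.54 and 3.01 against 6.1 and 7.35 FPKM in H460. MAGED1 is a MAGE family protein (X chromosome, 51546103 to 51645450, plus strand) and ZBTB18 a zinc finger repressor. PDCD4, an inhibitor of translation initiation, had folds of 1.55 for A549, 4.75 for H2023 and 3.35 for H460. MAGEH1, TSPYL2 and ZNF641 had folds of 1.54 to 2.51 in A549. TSPYL2, singled out after its values were seen, differed between the reagents in H460, with 77.9 FPKM for siRNA 28 and 19.2 FPKM for siRNA 30 against 9.06 and 9.24 FPKM in controls.

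The metal ion and metabolism group held 3 genes with a median fold of 2.34 for A549, 3.55 for H2023 and 3.47 for H460. MT2A was at 42.6 and 38.6 against 196 and 68.1 FPKM in A549, 62.1 and 88.6 against 236 and 233 FPKM in H2023, and 82.5 and 68.5 against 358 and 167 FPKM in H460. MT2A is a metallothionein, a small protein that binds zinc, copper and cadmium, and its paralogs are similar in sequence, so shared reads are possible. PGM2L1 was at 2.8 and 1.91 against 6.77 and 4.27 FPKM in A549, 0.26 and 0.576 against 2.79 and 2.58 FPKM in H2023, and 0.728 and 0.588 against 5.28 and 4.03 FPKM in H460. SFXN3 was at 11.8 and 11 against 23.9 and 17 FPKM in A549, 7.84 and 10.2 against 32.3 and 31.6 FPKM in H2023, and 14.7 and 21.3 against 61.5 and 39.4 FPKM in H460. PGM2L1 makes glucose-1,6-bisphosphate and SFXN3 is a mitochondrial carrier of the sideroflexin family. No role was assigned to 7 members, of which PCED1B and SUSD1 were among the first 12. PCED1B was at 7.31 and 7.51 against 17.7 and 12.3 FPKM in A549, 4.34 and 4.73 against 21.9 and 14.7 FPKM in H2023, and 1.12 and 0.944 against 3.04 and 4.35 FPKM in H460. SUSD1 was at 4.93 and 4.93 against 11 and 8.02 FPKM in A549, 10.4 and 9.92 against 18.9 and 17 FPKM in H2023, and 4.81 and 4.91 against 10.7 and 8.96 FPKM in H460. PCED1B lies on chromosome 12 from 47473386 to 47630445 (plus strand) and SUSD1 on chromosome 9 from 114803063 to 114937577 (minus strand). PBLD, RWDD2A, RELL2, DENND11 and FAM234A had A549 folds between 1.54 and 1.83.

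**Figure D3:**
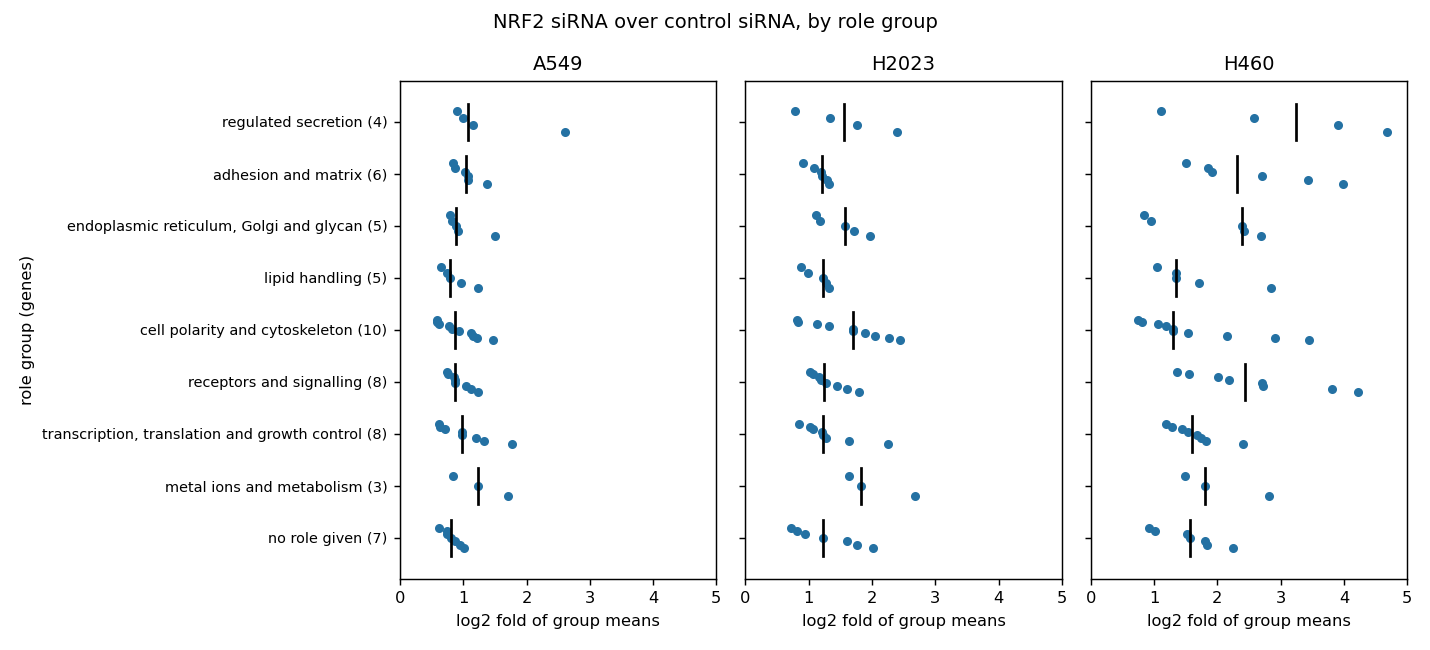
Log2 fold of the NRF2 siRNA mean over the control siRNA mean for each member (points) by role group (rows, with the number of genes) in A549, H2023 and H460, with the median of the group as a bar. All points are above 0 by the choice of genes, and the spread is widest in H460.

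Fixed gene lists were read beside the members. Members on the lists reported here were SMPD1 among 32 expressed lysosomal genes, TIMP1 among TGF-beta response and extracellular matrix genes, IFITM2 among interferon-stimulated genes, and ITGA3 among integrins and laminins. None of the 35 canonical NRF2 targets with a value was a member, and 30 of the 35 were fallers. The median log2 fold of the 31 at the floor in all NRF2 siRNA libraries was -2.33 for A549, -2.16 for H2023 and -2.23 for H460. Beside the lists, 3.19% of all genes at the floor were higher in A549, 7.15% in H2023 and 14.9% in H460, and of all genes at the floor in the control libraries 2.11%, 4.37% and 16.2% were lower in the same order. In H460, 11 of 24 integrins and laminins were higher by the condition and 0 lower, with a median log2 fold of 1.31 over the expressed ones, against 3 higher and 1 lower in A549 and 5 higher and 1 lower in H2023. Of 42 extracellular matrix proteins and proteases, 17 were higher and 1 lower in H460, 6 higher and 2 lower in H2023, and 2 higher and 0 lower in A549. Median log2 folds in H460 were of like size for other lists, with 1.32 for TGF-beta response genes, 1.19 for tetraspanins and 1.14 for insulin/IGF pathway genes and FOXO targets. Of 35 lysosomal genes, 16 were higher and 1 lower in H460 with a median log2 fold of 0.80. In A549, 2 of them were higher and 3 lower (median 0.06), and in H2023, 2 were higher and 1 lower (median 0.30). Among 36 interferon-stimulated genes, of which 18 were expressed, 7 were higher and 0 lower in A549, 3 higher and 1 lower in H2023, and 9 higher and 0 lower in H460. Of 25 cell cycle genes, 23 were lower in H460, 4 in H2023 and 0 in A549, and the part of this shift in the H460 values of the members was not tested.

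The 2 NRF2 siRNAs were compared over the 56 genes, as a description. In every line siRNA 28 was library 0 and siRNA 30 library 1, so reagent and library number cannot be told apart. The choice of genes used these same values and asked both reagents to lie above the controls, which bounds how far they can differ in a member, so nothing is read from the members' counts. The level with siRNA 28 was above that with siRNA 30 for 45 members in A549, beside 60.6% of expressed genes, for 39 in H2023, beside 51.8%, and for 30 in H460, beside 51.8%. The median ratio of siRNA 28 to siRNA 30 was 1.17 for A549, 1.12 for H2023 and 1.09 for H460, and 1.06, 1.01 and 1.02 over the expressed genes. For 23 members siRNA 28 was higher in all 3 lines, and for 2, MAGED1 and SYNPO, siRNA 30 was higher in all 3. Over the expressed genes the shares were 28.6% and 19.7%. In limma on log2(FPKM + 1) with line as a covariate, no gene of 12730 tested passed an adjusted p of 0.05 with siRNA 28 above (0%) or below (0%) siRNA 30, and 2666 genes (20.9%) had an unadjusted p under 0.05. Among the members, HID1 had a log2 difference of 1.05 ± 0.22 (SE). When all 12 libraries entered 1 fit, 864 genes (6.79%) passed with siRNA 28 above and 479 (3.76%) with it below, and 7 of the 56 members passed, all with siRNA 28 above: HID1, PTP4A3, SMPD1, CDC42EP3, MAGEH1, ITGA3 and MT2A.

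**Figure D4:**
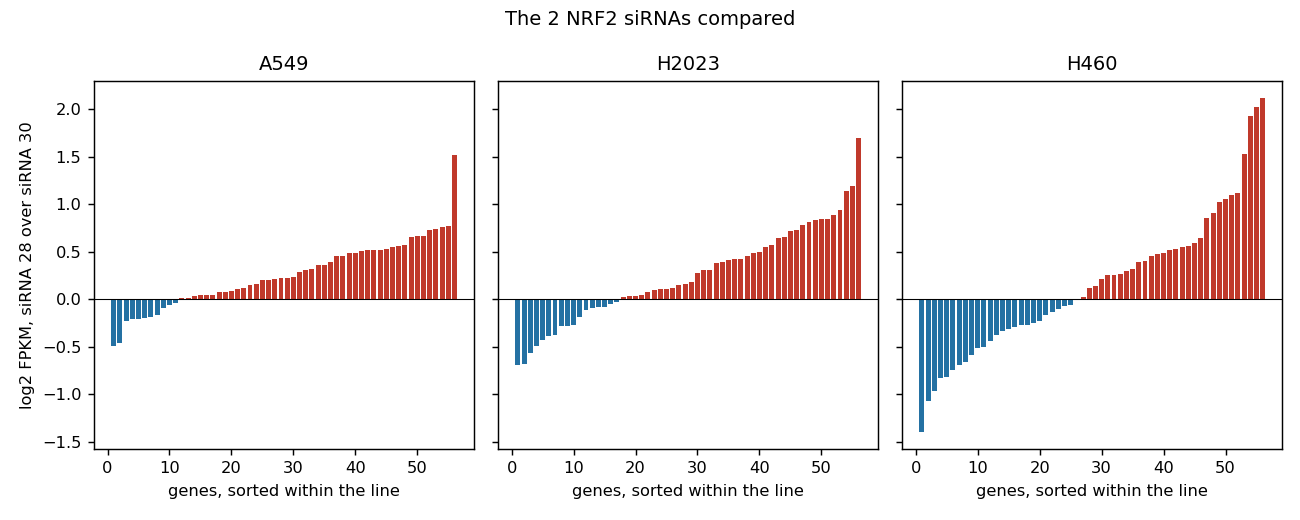
Log2 of FPKM with siRNA 28 over siRNA 30 for the 56 members, sorted within A549, H2023 and H460 (bars; red where siRNA 28 is higher, blue where siRNA 30 is higher). Bars above 0 number 45, 39 and 30, and bars in H460 reach farthest in both directions.

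Levels before knockdown differed between the members and between lines. The H2023 and H460 control libraries, which shared protocol and medium, were compared with limma on log2(FPKM + 1). Of 55 members tested, 27 were higher in H2023 (24.6% of 12049 genes tested were) and 10 were lower (26.1%), and 18 did not pass the threshold. The control values also entered the choice of the genes, which had to lie below the NRF2 siRNA values in each line, so these counts and the differences below are a description and nothing is read from them about the members. ITGA3 had the widest difference, with a log2 difference of 5.27 ± 0.20 (SE). BCAM followed with 3.48 ± 0.23 (SE). DGKA, CAPN5, GRAMD1A and CHGB were also higher in H2023, by 1.997 to 2.21 on the log2 scale. SEPTIN6 was lower in H2023, with a log2 difference of -2.10 ± 0.19 (SE), and TIMP1 likewise, with -2.02 ± 0.24 (SE). The standard errors rest on 2 control libraries per line, which were biological duplicates. They are moderated by limma, which draws the variance of each gene toward a trend over all genes tested, so they are not the spread of the duplicates alone. Without H2023 control replicate 0 or 1, the count of members higher in H2023 was 16 or 10 of 48 tested, beside 11.1% or 11.7% of all genes tested. H2023 then holds 1 library, which is assumed to vary like those of H460.

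The members were then examined for features that the choice of genes did not use. On chromosome X lay 8 of the 56 genes (14.3%), against 3.13% of the expressed genes and 7.06% of the fallers. They were MAGED1, MAGEH1, CHST7, SEPTIN6, TSPYL2, TIMP1, MOSPD1 and SYP. Chromosome X was not named in advance and held the most members of any chromosome. The share of X-linked genes among all genes higher in a single line was 5.74% for A549, 4.33% for H2023 and 4.24% for H460. The median log2 fold of the 288 X-linked expressed genes was 0.07 for A549, 0.09 for H2023 and 0.01 for H460. Chromosome 19 held 7 members (12.5%) against 6.22% of expressed genes. On it, BCAM and NECTIN2 lie 24754 bases apart with no other expressed gene between them, and RTN2 follows 596072 bases beyond NECTIN2, with 13 expressed genes between them that are no members. On chromosome 16, RHBDF1 and FAM234A lie 158166 bases apart with 3 expressed genes between them that are no members. LMF1 follows 581452 bases beyond FAM234A, with 23 expressed genes between them that are no members. These shares were not tested against chance.

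Proteins that enter the secretory pathway usually carry a signal peptide or a membrane segment, which are hydrophobic. The longest annotated coding sequence of each gene was translated, and windows of 19 residues with a mean Kyte-Doolittle hydropathy of at least 1.6 were counted. Such a window was present in 28 of 56 members (50%), against 30.6% of the expressed genes and 28.2% of the fallers. Among the 28 were BCAM, ITGA3, NECTIN2, SDC2, IL1RAP, SYP and SLC22A17, which span or reach the cell surface or vesicles. The exchange factor DNMBP, DENND11 and PLEKHH2 also had a window, whereas the membrane protein IFITM2, the peptide INSL4 and SUSD1 had none. The share with a window is therefore not a share of secretory or membrane proteins, and it was not tested against chance. Within the first 40 residues it was present in 12.5% of members and 9.39% of expressed genes, with CHGB, TIMP1, ITGA3 and NUCB2 among the 7 members. The median protein was 541 residues long for members, 464 for expressed genes and 384 for fallers.

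Promoters of RefSeq (GRCh38.p14, 250 bases before to 50 after the start) were matched by symbol for 44 of the 56 members. The core of the antioxidant response element, TGACNNNGC on either strand, was present in 10 of them (22.7%), against 15.6% of expressed genes, 29.4% of fallers and 13.6% of all promoters. The members with it were RHBDF1, NUCB2, GRAMD1A, PLIN3, SUSD1, DNMBP, SFXN3, MT2A, NECTIN2 and CHST7. Bases upstream of the start around the core are shown for 5 of them, because the core is the sequence to which NRF2 binds and the genes went the other way from its classical targets. Capitals mark the core, which reads on the opposite strand in NECTIN2 and NUCB2.
MT2A: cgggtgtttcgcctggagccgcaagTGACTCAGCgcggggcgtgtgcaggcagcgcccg
RHBDF1: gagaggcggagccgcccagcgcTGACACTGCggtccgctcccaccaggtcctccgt
PLIN3: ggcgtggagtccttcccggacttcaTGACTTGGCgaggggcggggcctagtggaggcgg
NECTIN2: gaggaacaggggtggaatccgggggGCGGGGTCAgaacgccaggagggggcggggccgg
NUCB2: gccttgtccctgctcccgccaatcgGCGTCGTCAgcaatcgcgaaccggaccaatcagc
The windows lie at chr16:56608455-56608513 (plus strand, MT2A), chr16:72826-72881 (minus strand, RHBDF1), chr19:4867792-4867850 (minus strand, PLIN3), chr19:44846196-44846254 (plus strand, NECTIN2) and chr11:17276613-17276671 (plus strand, NUCB2) of GRCh38. A match to these letters is not evidence of binding. In MT2A the core overlaps TGANTCA, the AP-1 site, which was present in 4 members (9.09%), against 3.91% of expressed genes and 11.8% of fallers. RHBDF1, SYP and DNMBP held the other 3. GGAATG, the TEAD site, was in 13.6% of members and 10.2% of expressed genes. The E-box CACGTG was in 1 member, ARHGEF18 (2.27%), against 10.9% of expressed genes, and the longer TCACGTGA in none of the 44, against 2.34%. TGACGTCA, the CRE, was in PARD6A and NECTIN2 (4.55%), against 3.72% of expressed genes. The forkhead site TGTTTAC was in 1 member, SUCO (2.27%), against 2.08% of expressed genes. TATAAA was in 1 member, MT2A (2.27%), against 4.78% of expressed genes. The GC box GGGCGG was in 81.8% of members and 73.2% of expressed genes, and the median promoter GC was 69.3% and 65.7%.

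**Figure D5:**
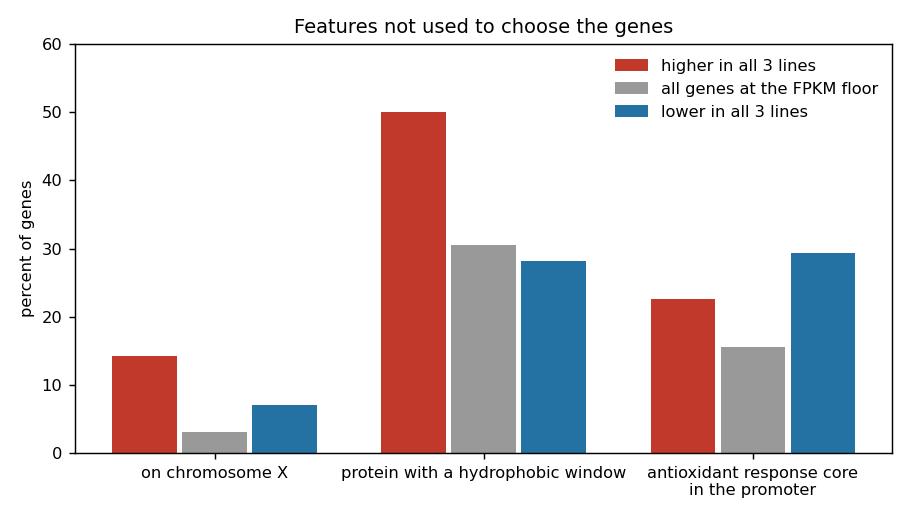
Percent of genes on chromosome X, with a hydrophobic protein window and with an antioxidant response core in the promoter, for the 56 members (red), all expressed genes (grey) and fallers (blue). The members stand at 14.3%, 50% and 22.7% (the last over the 44 members with a matched promoter), above the grey bars at 3.13%, 30.6% and 15.6%, and the fallers stand above the members for the antioxidant response core, at 29.4%.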

How the data were processed

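RNA-seq libraries were made from A549, H2023 and H460 cells by the authors. The study's methods name TopHat Alignment and Cufflinks, whereas the submitters' processing notes list cutadapt 1.15, STAR 2.5.3a, Cuffnorm, HTSeq, DESeq2 and hg19 without roles, so which aligner made the deposited FPKM values is not settled. FPKM values deposited by the authors (57815 gene identifiers, 12 libraries) were read, and 12710 values under 1e-06 were set to 0. Symbols and positions came from GENCODE lifted to GRCh37, which matched 96.1% of identifiers. The authors also deposited tables of their own comparisons (DESeq2 fold changes and p-values), which were not used.

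Members were found by the stated fold limit (1.4) and floor (2 FPKM). Genes were ordered by the smallest ratio over lines. Values are given for the first 12 and for up to 4 per role group, and of tested members at most 8 are named by size. The members, lists and role groups were chosen with earlier results of these data known. A count test had been foreseen, but FPKM are not counts, so limma 3.58.1 (R 4.3.3) was run on log2(FPKM + 1) of genes at 1 FPKM in at least 2 libraries, with an intensity trend, two-sided tests and Benjamini-Hochberg adjustment at 0.05. Differences on this scale understate those of low genes. Tables and plots were made with pandas 2.3.3, numpy 2.4.6 and matplotlib 3.10.9 under Python 3.11.15. The procedures were tested on simulated data. A few markers and 1 gene list are not reported here. Coding sequences were translated from the GENCODE transcripts.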

Additional observations from a re-analysis of the deposited data

How the results depend on the processing

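Among these alternatives, the number of genes that met the condition moved most with the fold limit and with the summary of the replicates: 98 genes at a fold limit of 1.3, 14 at 1.6, 2 at 2, 35 with a floor of 5 FPKM and 360 with the ratio of group means. It was 77 with a floor of 1 FPKM, 79 without mitochondrial transcripts, 61 with median-of-ratios scaling, 44 with the ratio of FPKM + 1 and 60 over all gene types. Of the 56 members, 53 remained with median-of-ratios scaling, where DGKA, DNMBP and FAM234A had smallest ratios of 1.34, 1.37 and 1.36, and all 56 remained without mitochondrial transcripts, where the condition is looser in H460. Leaving out 1 library loosens the condition and gave 58 to 127 genes, with 104 without A549 control siRNA replicate 0 and 127 without A549 NRF2 siRNA replicate 1. The labels name nothing that same-numbered libraries share. Their deviations correlated at 0.053 for A549, 0.331 for H2023 and 0.109 for H460, so not every line was above 0.1 and the numbers were not taken as pairs. With the replicate block, as ratios within a library number, 122 genes met the condition, and in the baseline comparison 28 members were higher and 11 lower in H2023, beside 25.9% and 28.2% of all genes tested. The median H460 fold was 3.97 without mitochondrial transcripts, 2.87 with FPKM + 1, and 3.201 to 3.455 when 1 library was left out.

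In the baseline comparison, leaving out 1 control library gave 1239 to 2831 genes higher in H2023, 10 to 26 of them members, and 1898 to 2939 lower, 8 to 12 of them members. The siRNA comparison, with 0 genes called, gave 34 genes with siRNA 28 above and 11 below without mitochondrial transcripts, and 864 and 479, with 7 members above, in 1 fit of all 12 libraries. Leaving out 1 library gave 0 to 125 genes above, at most 1 of them a member, and 0 to 67 below, with 122 and 125 above without A549 NRF2 siRNA replicate 0 or 1 and 31 without H460 NRF2 siRNA replicate 1. It stayed at 0 without the trend, with a pseudocount of 0.1, with no filter and with median-of-ratios scaling. Medians of the gene lists moved by at most 0.085 (log2) with that scaling, each by less than 1 SD over the pairs of libraries. The cause of these shifts was not tested. Read depth is unknown from FPKM, so no counting interval can be given.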

Other observations

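The same condition applied to genes of other types found 4 more, all with low to moderate levels. LINC00888, annotated as a transcribed pseudogene on chromosome 3, was at 3.60 and 3.21 FPKM with control siRNA and at 7.36 and 5.55 FPKM with siRNA 28 and siRNA 30 in A549. Its values were 2.18 and 2.79 against 8.01 and 7.45 FPKM in H2023, and 1.15 and 2.20 against 7.96 and 5.76 FPKM in H460. The antisense transcript PPP1R14B-AS1 on chromosome 11 was at 8.49 and 9.20 against 17.4 and 16.9 FPKM in A549. In H460 it went from 0.192 and 0.162 FPKM to 7.35 and 7.82 FPKM, and in H2023 from 3.84 and 5.43 FPKM to 7.77 and 12.3 FPKM. The other two were FAM151B-DT and an unnamed long noncoding RNA on chromosome 16. The libraries were made with a strand-specific kit, but whether the counting used strand is not given in the sources used here, so the levels of the antisense transcripts may include reads of their partner genes.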
